A study of Saccharomyces cerevisiae with 12 samples.

Results

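The genes described here are the 39 nuclear genes for subunits of the yeast respiratory chain and the ATP synthase, of 6660 features in the deposited count table. They were taken by gene identifier: 3 NADH dehydrogenases (NDI1, NDE1, NDE2), 4 subunits of complex II, 9 of complex III, 2 cytochromes c, 9 of complex IV and 12 of the ATP synthase. All 39 were found and all 39 had enough counts to be tested. RNA was sequenced from diploid Saccharomyces cerevisiae of the BY4743 background in 3 strains with 4 libraries each: a strain without ATG41 (also called ICY2; atg41), a strain without ATG1 (atg1) and the wild type (WT). For all 12 libraries the cells had been moved from zinc-rich to zinc-limiting liquid medium for 8 h at 30 °C. Zinc deficiency was thus common to every group. Both genes act in autophagy, in which the vacuole takes up and degrades cytoplasm: Atg1 is the kinase that triggers it, and Atg41 is a small protein that it needs to run at its full rate. Separate cultures for the 4 libraries of a strain are not stated in the labels, so the p-values describe the scatter of these libraries, part of which may be technical.

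The respiratory chain passes electrons from NADH and succinate to oxygen through carriers in the inner mitochondrial membrane. Budding yeast has no proton-pumping complex I. Its single-subunit NADH dehydrogenases and complex II (succinate dehydrogenase) reduce coenzyme Q, complex III (cytochrome bc1) passes the electrons to cytochrome c, and complex IV (cytochrome c oxidase) passes them to oxygen. Complexes III and IV pump protons, and the ATP synthase uses the resulting gradient to make ATP. Many of these genes are repressed on glucose and activated through CCAAT boxes bound by the Hap2/3/4/5 complex, in which Hap4 is the regulated activating subunit.

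Libraries held 9623157 to 11247182 expected counts. ATG1 had 0 counts in all 4 atg1 libraries, against 988 to 1186 in WT. ATG41 had 1, 0, 0 and 0 counts in the atg41 libraries, against 7145 to 8973 in WT. LEU2 and URA3, which BY4743 lacks, had 0 counts in every library. HIS3, of which BY4743 carries a partial deletion, had 910 to 1282 counts. ZRT1, the zinc transporter gene induced by zinc deficiency, had 76620 to 82678 counts in atg41, 143387 to 173214 in atg1 and 143761 to 176983 in WT. Other genes checked for zinc deficiency did not move with it in atg41 against WT. ADH4 was higher (log2 1.60, adjusted p = 3.74e-08, edgeR). ZAP1 (log2 0.03) and ZPS1 (log2 -0.03) were not called (adjusted p = 0.742 and 0.654, edgeR). Whether zinc status differed between the strains was not tested. The library atg1 replicate 1 stood apart: against the other atg1 libraries its counts gave 33.1 to 55.4 chi-square units per gene, where the remaining replicate pairs gave 3.43 to 9.13. Levels below are CPM (TMM-scaled counts) unless given as TPM, the authors' per-length unit. Fold changes are log2 ± SE from edgeR's quasi-likelihood test over all 12 libraries, and a gene is said to rise or fall where its Benjamini-Hochberg adjusted p over 6195 genes was under 0.05.

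Loss of ATG41 went with higher transcript levels over much of the chain, unevenly between complexes. Of the 39 genes, 21 rose in atg41 against WT, 5 fell and 13 were not called. Over all genes tested, 29.9% rose and 35.9% fell. The median log2 change was 0.24 over the 39 genes and -0.04 over all genes. In 23 of the 39 genes every atg41 library lay above every WT library, and in 5 every one lay below, where the same held for 30.1% and 35.2% of all genes. All 4 complex II genes rose (median 1.04), as did 7 of 9 complex III genes (median 0.51), 2 of 3 NADH dehydrogenases (median 0.26) and 1 of 2 cytochromes c (median 0.58). Complex IV had 2 genes that rose and 3 that fell, with a median of 0.13, which was 0.079 without WT replicate 2 and -0.0018 when libraries were scaled to equal totals. The ATP synthase had 5 that rose and 2 that fell, with a median of 0.10, which was 0.16 without atg41 replicate 3 and -0.04 at equal totals. Equal totals moved the median of all genes by -0.14. Relative to that median, complex IV stood at 0.17 under both scalings and the ATP synthase at 0.14 under both, against 1.08 for complex II. At equal totals 17 of the 39 genes rose and 8 fell, and over all genes 1252 rose and 2816 fell, against 1855 and 2226 with TMM factors. These are bulk libraries, so more transcript per cell and more cells with the transcript cannot be told apart.

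**Figure D1:**
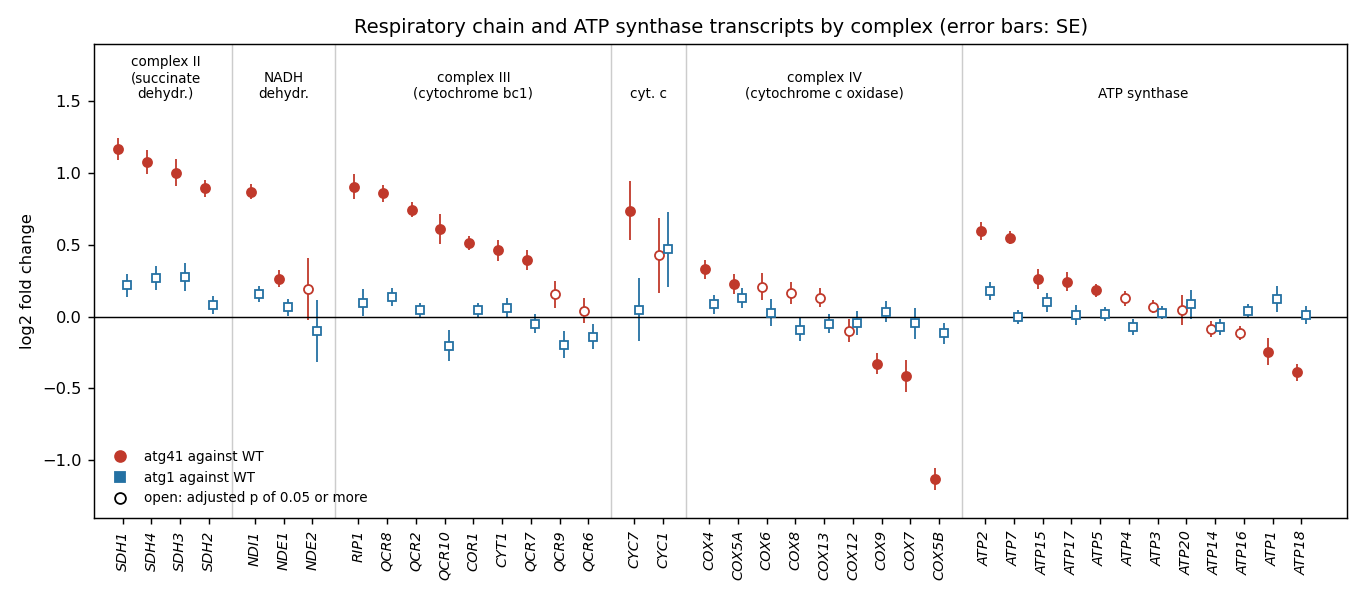
Log2 fold change against WT (vertical axis) of the 39 genes, grouped by complex, for atg41 (red circles) and atg1 (blue squares), with SE bars; filled symbols have an adjusted p under 0.05. The 4 complex II genes lie between 0.89 and 1.17 in atg41, while complex IV runs from -1.13 (COX5B) to 0.33 (COX4) and every atg1 symbol is open.

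Loss of ATG1 gave no call among the 39 genes in edgeR, in either direction. Over all genes 0.387% rose and 3.34% fell in atg1 against WT. At an unadjusted p under 0.05 there were 5 of the 39, all of them higher: SDH1, SDH3, SDH4, NDI1 and ATP2. That share was below the 21.2% of all genes at the same p. DESeq2 called 6.26% of all genes and 2 of the 39, ATP2 (log2 0.20, adjusted p = 0.021) and SDH4 (log2 0.29, adjusted p = 0.0491). The median change was 0.04 over the 39 genes and -0.01 over all genes. All 4 atg1 libraries lay above all 4 WT libraries in 4 of the 39 genes (SDH1, SDH3, ATP1 and ATP2) and below them in 1 (ATP4), against 4.7% and 9.09% of all genes. The direct comparison of atg41 with atg1 gave 23 genes that were higher in atg41, 6 that were lower and 10 not called, with backgrounds of 31% and 33%. All 4 atg41 libraries lay above all 4 atg1 libraries in 21 of the 39 genes and below them in 5, against 27.9% and 28.3% of all genes. The comparisons of atg41 with WT and with atg1 share the atg41 libraries, so their counts are not independent of each other.

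Promoters were read from RefSeq assembly R64 from 500 bases before to 50 bases after each annotated start. These gene models hold no UTRs, so the start is the start codon. The core CCAAT of the Hap2/3/4/5 site, on either strand, was present in 35 of 39 promoters (89.7%) and in 67.0% of 6025 promoters in all. The longer form CCAATNA, of which every match is also a CCAAT match, was added after the expression values were seen. It was present in 33 of 39 (84.6%) and in 27.5% of all promoters. All 46 matches in these 33 promoters that lie before the start were counted, 36 of them on the gene's own strand, and the match nearest the start had a median position of -199 (quartiles -229 and -164). With 33 of the 39 promoters holding it, this motif could hardly separate the calls, and a link to them was not tested. It was present in 18 of the 21 genes that rose in atg41 (absent from COX4, QCR2 and CYT1). It was also present in 5 of the 5 that fell and in 10 of the 13 not called (absent from QCR6, CYC1 and NDE2). The consensus Hap1 site, a pair of CGG triplets with a fixed spacer, was present in 1 of 39 promoters (QCR6), against 0.382% of all. The core of the Rox1 site, ATTGTT, also added after the values were seen, was present in 22 of 39 (56.4%), against 53.2% of all. A match is a description of the letters only.

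Segments of 6 promoters around the CCAATNA match show genes that rose (SDH2, QCR8, NDI1 and COX5A) beside genes that fell (COX5B and ATP18) with the same motif. They are written 5′ to 3′ on the gene's strand, with CCAATNA or its reverse complement in capitals. SDH2 is shown at chrXII:54019-54145 (minus strand, -214 to -88 from the start), QCR8 at chrX:106163-106289 (plus strand, -271 to -145) and NDI1 at chrXIII:29968-30094 (minus strand, -287 to -161). COX5A is shown at chrXIV:531518-531644 (plus strand, -207 to -81), COX5B at chrIX:155090-155216 (plus strand, -132 to -6) and ATP18, with 2 matches in the segment, at chrXIII:104262-104417 (minus strand, -255 to -100). A further ATP18 match, at -18, lies outside its segment.
SDH2: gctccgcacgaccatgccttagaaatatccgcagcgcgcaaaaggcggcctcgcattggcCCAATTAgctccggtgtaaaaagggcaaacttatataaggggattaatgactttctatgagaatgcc
QCR8: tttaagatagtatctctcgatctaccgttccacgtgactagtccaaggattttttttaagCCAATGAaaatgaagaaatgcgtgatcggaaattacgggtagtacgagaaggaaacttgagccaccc
NDI1: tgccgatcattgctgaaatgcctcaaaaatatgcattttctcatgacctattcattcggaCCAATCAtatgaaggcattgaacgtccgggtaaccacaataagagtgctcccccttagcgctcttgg
COX5A: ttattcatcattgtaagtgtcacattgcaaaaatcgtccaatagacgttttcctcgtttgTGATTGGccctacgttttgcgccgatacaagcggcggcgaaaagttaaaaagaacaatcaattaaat
COX5B: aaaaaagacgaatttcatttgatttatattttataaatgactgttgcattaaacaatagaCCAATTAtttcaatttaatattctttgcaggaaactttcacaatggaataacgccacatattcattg
ATP18: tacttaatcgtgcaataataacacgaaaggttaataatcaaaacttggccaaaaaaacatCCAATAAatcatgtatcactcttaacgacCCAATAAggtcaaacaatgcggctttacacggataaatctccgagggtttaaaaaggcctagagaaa

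Among the enzymes that deliver electrons from NADH, the internal dehydrogenase rose most. NDI1 (YML120C, chromosome XIII, 28266 to 29807, minus strand) oxidises NADH of the matrix. It had 111, 105, 106 and 109 CPM in atg41, 66.3, 67.1, 62.1 and 67.1 CPM in atg1, and 57.8, 59.9, 53.8 and 63.9 CPM in WT. Every atg41 library was above every other library, while atg1 and WT overlapped. The log2 change was 0.87 ± 0.05 in atg41 (adjusted p = 6.13e-09) and 0.16 ± 0.06 in atg1 (adjusted p = 0.131).

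NDE1 and NDE2 are the external dehydrogenases, which oxidise NADH of the cytosol. NDE1 had 260.0, 267, 299 and 267 CPM in atg41, 261, 232, 228 and 233 CPM in atg1, and 234, 223, 225 and 229 CPM in WT. The atg41 libraries were above WT but overlapped atg1 through atg1 replicate 1, and the gene rose in atg41 by 0.26 ± 0.06 (adjusted p = 0.00123). NDE2 had 48.1, 49.0, 52.3 and 47.0 CPM in atg41, 19.2, 42.1, 48.3 and 50.4 CPM in atg1, and 44.3, 41.7, 39.7 and 46.3 CPM in WT. The lowest value was atg1 replicate 1, which had been the highest atg1 library for NDE1, and the 4 atg41 libraries lay just above the 4 of WT. The NDE2 change of 0.19 ± 0.22 in atg41 was not called (adjusted p = 0.454). Without atg1 replicate 1, NDE2 was 0.19 higher in atg41 with an adjusted p of 0.0179. Its change in atg1 was -0.10, and 0.13 without that library.

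Complex II, which also belongs to the tricarboxylic acid cycle, had the highest median in atg41. Its 4 subunits are the flavoprotein SDH1, which holds the active site for succinate, the iron-sulfur protein SDH2, and the membrane anchors SDH3 and SDH4. SDH1 (YKL148C, chromosome XI, 169207 to 171129, minus strand) had 86.2, 90.3, 88.3 and 100.3 CPM in atg41, 54.5, 48.4, 43.8 and 42.2 CPM in atg1, and 42.0, 40.7, 40.3 and 39.3 CPM in WT. The 3 strains did not overlap, with atg41 at the top and atg1 just above WT. SDH1 rose in atg41 by 1.17 ± 0.08 (adjusted p = 1.01e-08) and its change in atg1 was 0.22 ± 0.08 (adjusted p = 0.136). SDH4 had 62.8, 63.4, 64.1 and 64.9 CPM in atg41, 43.0, 35.9, 30.2 and 36.9 CPM in atg1, and 29.7, 31.5, 28.9 and 30.8 CPM in WT. The atg41 libraries differed from each other by little and lay above all others, while atg1 overlapped WT. SDH4 rose in atg41 by 1.08 ± 0.08 (adjusted p = 4.85e-08). Its change in atg1, 0.27 ± 0.08, had the smallest adjusted p of the 39 genes in that comparison (0.0932). Leaving out single libraries gave 0.19 to 0.34. The 0.34 was found without atg1 replicate 3 (adjusted p = 0.0103), where the calls over all genes went from 231 to 457. The library that stood apart, atg1 replicate 1, was the highest atg1 library for all 4 complex II genes. SDH3 rose in atg41 by 1.00 ± 0.10 and SDH2 by 0.89 ± 0.06, with adjusted p of 4.75e-07 and 1.17e-08. Against atg1 the 4 genes were higher in atg41 by 0.72 to 0.95.

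SDH1, SDH3 and SDH4 have paralogs, SDH9, SHH3 and SHH4, and reads of similar genes could be split between them by the authors' counting. The paralogs were less abundant per length, with 8.03, 35.7 and 50.5 TPM in atg41 and 6.92, 27.6 and 41.4 TPM in WT. SHH3 rose by 0.37 ± 0.11 (adjusted p = 0.0103) and SHH4 by 0.29 ± 0.09 (adjusted p = 0.0122), and SDH9 was not called (0.22, adjusted p = 0.105). Of 5 tested genes for complex II assembly, 2 fell, SDH7 (-0.21, adjusted p = 0.0258) and the flavin carrier gene FLX1 (-0.23, adjusted p = 0.0396). That share, 40%, was near the 35.9% of all genes that fell.

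**Figure D2:**
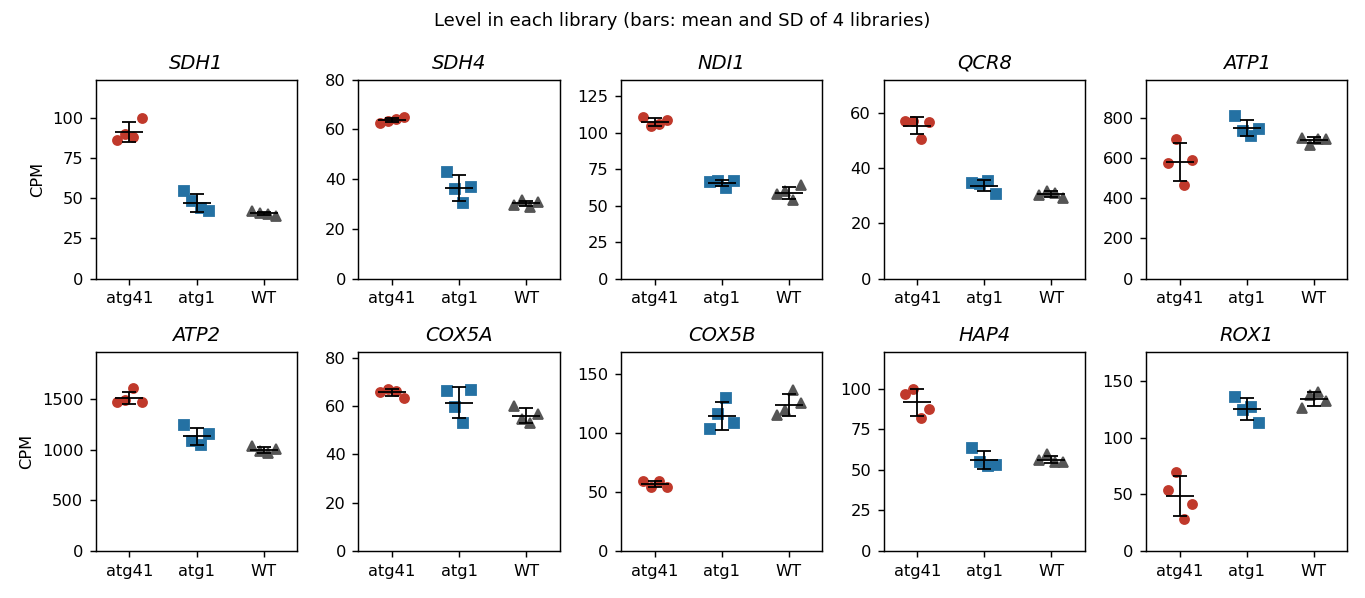
Level in each library (CPM, linear axis from 0) of 8 of the genes and of the regulators HAP4 and ROX1 in atg41, atg1 and WT; bars give the mean and SD of 4 libraries. SDH1, SDH4, NDI1, QCR8, ATP2 and HAP4 sit higher and COX5B and ROX1 lower in every atg41 library than in any other, while ATP1 in atg41 overlaps WT.

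In complex III, 7 of 9 genes rose in atg41. The largest rises were those of RIP1, the Rieske iron-sulfur protein that takes electrons from reduced coenzyme Q, and QCR8, a small subunit. Their changes lay within each other's error, and with the GC and length trends removed QCR8 (1.17) stood above RIP1 (1.03). RIP1 had 57.0, 58.2, 56.9 and 54.4 CPM in atg41, 38.9, 32.9, 26.3 and 31.4 CPM in atg1, and 31.8, 29.6, 30.0 and 29.5 CPM in WT. The atg41 libraries were above all others, and atg1, the widest group, spanned WT. RIP1 rose by 0.91 ± 0.09 (adjusted p = 6.37e-07), and its change in atg1 was 0.10 ± 0.09. QCR7, a small subunit and the most abundant of the 9 per length in WT, had 96.4, 104, 94.7 and 107 CPM in atg41, 82.6, 72.7, 72.7 and 67.4 CPM in atg1, and 72.3, 71.7, 81.5 and 79.7 CPM in WT. The atg1 and WT libraries overlapped, and atg41 lay above both, with a rise of 0.40 ± 0.07 (adjusted p = 0.000135). The core proteins QCR2 and COR1 rose by 0.74 ± 0.05 and 0.51 ± 0.05, CYT1, the cytochrome c1 apoprotein, by 0.46 ± 0.07, and the small subunits QCR8 and QCR10 by 0.86 ± 0.06 and 0.61 ± 0.11. The small subunits QCR9 (0.16 ± 0.09, adjusted p = 0.154) and QCR6, the acidic hinge protein (0.04 ± 0.09, adjusted p = 0.678), were not called. Against atg1, 8 of the 9 were higher in atg41, QCR9 among them (0.35 ± 0.09). Of 13 genes for the expression, assembly and heme attachment of complex III and cytochrome c, 8 rose in atg41 (background 29.9%). The largest rise was CBS1, an activator of COB mRNA translation (0.58 ± 0.10, adjusted p = 0.000171).

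The cytochromes c were the least abundant of the 39 genes. CYC1 encodes iso-1-cytochrome c, the main aerobic form, and CYC7 encodes iso-2. CYC7 had 2.42, 2.38, 2.12 and 2.14 CPM in atg41, 1.78, 1.31, 1.34 and 1.19 CPM in atg1, and 1.23, 1.76, 1.15 and 1.27 CPM in WT. The atg41 libraries were above all others, and CYC7 rose by 0.74 ± 0.21 (adjusted p = 0.00602). CYC1 had 3.69, 3.35, 4.02 and 4.37 CPM in atg41, 4.82, 5.03, 3.64 and 2.47 CPM in atg1, and 4.34, 2.59, 1.91 and 2.63 CPM in WT. The 3 groups overlapped. The CYC1 change of 0.43 ± 0.26 was not called (adjusted p = 0.162), and was 0.68 without WT replicate 1, the highest WT library (adjusted p = 0.0301).

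Complex IV moved in both directions. COX4 (the subunit that binds zinc in yeast) and COX5A rose in atg41, COX5B, COX7 and COX9 fell, and COX6, COX8, COX12 and COX13 were not called. COX4 had 69.2, 74.5, 69.2 and 70.1 CPM in atg41, 67.0, 55.7, 55.3 and 60.7 CPM in atg1, and 57.3, 56.7, 51.8 and 58.9 CPM in WT. Every atg41 library was above the others, and COX4 rose by 0.33 ± 0.07 (adjusted p = 0.000504). COX7 fell by 0.41 on the log2 scale (SE 0.11, adjusted p = 0.00455) and COX9 by 0.33 (SE 0.07, adjusted p = 0.00109). COX6 (0.21, adjusted p = 0.0655), COX8 (0.17, adjusted p = 0.0787) and COX13 (0.13, adjusted p = 0.0955) each passed without atg41 replicate 3, with adjusted p of 0.0471, 0.0332 and 0.0291 and changes of 0.25, 0.21 and 0.18. COX6 and COX8 also passed without atg1 replicate 1 (adjusted p = 0.00645 and 0.04), and COX6 without atg1 replicate 4 (adjusted p = 0.0357).

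COX5A and COX5B encode interchangeable forms of the same subunit, Cox5a being the aerobic and Cox5b the hypoxic form. COX5B (YIL111W, chromosome IX, 155222 to 155765, plus strand) had 59.1, 54.3, 59.3 and 54.3 CPM in atg41, 103, 116, 130.2 and 108 CPM in atg1, and 115, 119.6, 137 and 125 CPM in WT. All 4 atg41 libraries were far below the others, and atg1 overlapped WT. COX5B fell by 1.13 on the log2 scale in atg41 (SE 0.08, adjusted p = 1.24e-08), the largest fall of the 39 genes, and its change in atg1 was -0.12 ± 0.07 (adjusted p = 0.367). COX5A (YNL052W, chromosome XIV, 531725 to 532186, plus strand) had 65.9, 67.0, 66.2 and 63.5 CPM in atg41, 66.3, 59.6, 52.8 and 66.6 CPM in atg1, and 59.9, 54.7, 53.0 and 56.6 CPM in WT. It was above WT in every atg41 library, overlapped atg1, and rose against WT by 0.23 ± 0.07 (adjusted p = 0.0112), which was 0.09 at equal totals (adjusted p = 0.208).

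The ratio of the forms turned over. COX5B stood at 0.825 to 0.911 times the TPM of COX5A in atg41, at 1.58 to 2.51 times in atg1 and at 1.96 to 2.62 times in WT. The log2 ratio of their counts was -0.21 ± 0.07 in atg41, 0.90 ± 0.30 in atg1 and 1.15 ± 0.17 in WT (SD, n = 4 each). It was 1.36 lower in atg41 than in WT and 1.11 lower than in atg1, with no overlap and an exact two-sided permutation p of 0.0286 for both, the smallest that 4 libraries against 4 can give. Adjusted over the 9 such tests this was 0.0857, which misses the threshold of 0.05. As the permutation p cannot go lower, a wider gap between these strains would not have lowered the adjusted value. The difference between atg1 and WT was -0.24 (exact permutation p = 0.2). The CYC7 to CYC1 log2 ratio averaged -0.75 ± 0.25 in atg41, -1.44 ± 0.36 in atg1 and -1.02 ± 0.55 in WT. It differed by 0.69 between atg41 and atg1 (exact permutation p = 0.0286, adjusted 0.0857) and by 0.27 between atg41 and WT (p = 0.457, exact permutation). The NDE2 to NDE1 log2 ratio averaged -2.47 ± 0.04 in atg41, -2.67 ± 0.74 in atg1 and -2.41 ± 0.08 in WT, with exact permutation p of 0.143 to 0.943. Its difference between atg1 and WT was -0.26, and 0.11 without atg1 replicate 1.

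**Figure D3:**
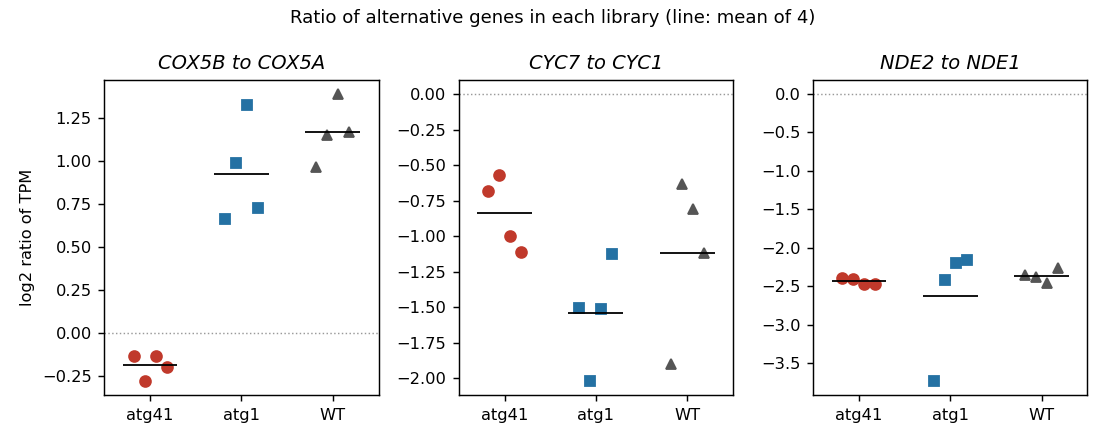
Log2 ratio of TPM (vertical axis) of COX5B to COX5A, CYC7 to CYC1 and NDE2 to NDE1 in each library of atg41, atg1 and WT; lines are means of 4 libraries. The COX5B to COX5A ratio lies below 0 in every atg41 library and above 0 in all others, and the lowest NDE2 to NDE1 point is atg1 replicate 1.

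Complex IV also depends on many assembly factors. Of 29 tested genes for its assembly and for the expression of its mitochondrial subunits, 7 rose and 7 fell in atg41, with a median of -0.02. Both shares, 24.1% each, were below the backgrounds of 29.9% and 35.9% of all genes. The largest rise was COX23, which functions in copper delivery (0.84 ± 0.15, adjusted p = 0.000153), and the largest fall was COA6, also linked to copper delivery (-1.09 ± 0.13, adjusted p = 5.5e-06). The respiratory supercomplex factors fell: RCF1 by 0.54 (SE 0.11, adjusted p = 0.000565) and RCF2 by 0.25 (SE 0.05, adjusted p = 0.000761).

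In the ATP synthase the catalytic subunits parted. ATP1 and ATP2 encode the alpha and beta subunits, which form the catalytic ring in equal number. ATP2 (YJR121W, chromosome X, 647607 to 649142, plus strand) had 1477, 1496, 1608 and 1472 CPM in atg41, 1242, 1088, 1046 and 1153 CPM in atg1, and 1035, 984, 969.7 and 1009.7 CPM in WT. The 3 strains did not overlap, with atg41 highest and WT lowest. ATP2 rose in atg41 by 0.60 ± 0.06 (adjusted p = 1.42e-06) and its change in atg1 was 0.18 ± 0.06 (adjusted p = 0.129). ATP1 had 578, 694, 465 and 589 CPM in atg41, 809, 737, 711 and 747 CPM in atg1, and 699, 666, 697 and 696 CPM in WT. The atg41 libraries were the most spread and 1 of the 4 reached into WT, while atg1 lay above WT. ATP1 fell by 0.25 in atg41 (SE 0.09, adjusted p = 0.032), and its change in atg1 was 0.12 ± 0.09 (adjusted p = 0.46). The ATP1 call depended on single libraries. It was lost without atg41 replicate 3, the lowest library (-0.15, adjusted p = 0.0864), without atg41 replicate 1 or 4 (-0.24 and -0.25, adjusted p = 0.0636 and 0.0547), without WT replicate 1, 3 or 4 (each -0.25, adjusted p = 0.0518, 0.0504 and 0.053) in DESeq2 and with its size factors (both -0.21, adjusted p = 0.0541 and 0.0637), and with the 2 strains fitted alone (-0.22, adjusted p = 0.0822).

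The central-stalk genes were ATP3 (gamma, 0.07 ± 0.05), ATP16 (delta, -0.11 ± 0.05) and ATP15 (epsilon, 0.26 ± 0.07), of which only ATP15 was called (adjusted p = 0.00377). ATP15 had 80.9, 85.1, 80.5 and 75.6 CPM in atg41, 72.3, 73.4, 67.9 and 74.2 CPM in atg1, and 76.8, 65.9, 60.045 and 65.95 CPM in WT. WT replicate 1 reached into the atg41 range, and the other WT libraries lay below it. ATP16 (adjusted p = 0.0536) passed as lower without atg41 replicate 3 (-0.14), without atg1 replicate 1, 2 or 3 (-0.11, -0.12 and -0.12) or without WT replicate 3 (-0.13), with adjusted p of 0.0313, 0.0428, 0.0464, 0.0397 and 0.0405.

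The stator holds the catalytic ring still. Its genes ATP7 and ATP5 rose, by 0.55 ± 0.05 (adjusted p = 1.81e-07) and 0.18 ± 0.05 (adjusted p = 0.00372). ATP4 (0.13 ± 0.05) had an adjusted p of 0.05 and was not called, but passed without atg41 replicate 3 (0.17, adjusted p = 0.0121) and without atg1 replicate 1 (0.13, adjusted p = 0.0267). ATP14 (-0.08 ± 0.06) was not called. Of the small membrane subunits, ATP17 rose by 0.24 ± 0.07 (adjusted p = 0.00599), ATP20, which helps the enzyme dimerise, was not called (0.05 ± 0.10), and ATP18 fell. ATP18 had 24.2, 24.4, 24.9 and 25.7 CPM in atg41, 34.4, 30.9, 33.5 and 32.2 CPM in atg1, and 32.8, 30.1, 34.5 and 32.5 CPM in WT. The atg41 libraries lay below all others, and ATP18 fell by 0.39 (SE 0.06, adjusted p = 6.91e-05). At equal totals ATP5, ATP15 and ATP17 were no longer called (0.05, 0.13 and 0.11, adjusted p = 0.431, 0.0999 and 0.197).

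Of 10 tested genes for assembly of the ATP synthase or expression of its mitochondrial subunits, 5 rose and 5 fell in atg41. The backgrounds were 29.9% and 35.9% of all genes. The largest rise was ATP25, needed for the OLI1 mRNA and the ring it encodes (0.54 ± 0.05, adjusted p = 3.74e-07), and the largest fall was AEP2, needed for OLI1 translation (-0.42 ± 0.09, adjusted p = 0.00117). Of 5 accessory or inhibitor genes, TIM11 (subunit e) rose by 0.21 ± 0.08 (adjusted p = 0.0295), and ATP19 (subunit k) fell by 0.48 (SE 0.10, adjusted p = 0.00102).

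Per length, the complexes held unequal shares of transcript. Summed TPM was 8372 ± 352 in atg41, 6985 ± 235 in atg1 and 7311 ± 158 in WT over all 39 genes (SD, n = 4 each). The ATP synthase took most of it, with 4757 ± 182 TPM in atg41, 4092 ± 157 in atg1 and 4213 ± 63.0 in WT. Complex III summed to 1545 ± 110 TPM in atg41, 1002 ± 38.8 in atg1 and 1104 ± 53.3 in WT. Both sums were above WT in every atg41 library. Genes of the ATP synthase did not share this evenly. ATP2 averaged 939 TPM in atg41 and 621 in WT, while ATP1, ATP14, ATP16 and ATP18 averaged lower in atg41 than in WT. TPM carries no TMM scaling, so sums here and below can differ in direction from the fold changes. With TMM the median log2 change in atg1 against WT was 0.04 over the 39 genes. It was 0.05 for complex III, -0.04 for complex IV and 0.02 for the ATP synthase.

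Complex IV summed to 1447 ± 75.04 TPM in atg41, 1498 ± 59.4 in atg1 and 1618 ± 60.05 in WT, and the highest atg41 library (1499) was below the lowest WT library (1568). Without COX5B the sums were 1304 ± 74.8 TPM in atg41, 1228 ± 25.9 in atg1 and 1306 ± 41.7 in WT. Complex II summed to 350 ± 9.86 TPM in atg41, 188 ± 10.3 in atg1 and 172 ± 3.399 in WT, and the NADH dehydrogenases to 249 ± 4.61 TPM in atg41, 186 ± 10.8 in atg1 and 190 ± 3.53 in WT. The cytochromes c summed to 23.3 ± 1.53 TPM in atg41, 19.2 ± 4.31 in atg1 and 16.02 ± 3.63 in WT. In WT the most abundant genes per length were ATP15 (671 ± 52.6 TPM) and ATP2 (621 ± 3.56 TPM), which do not differ beyond their spread, followed by ATP1 (400 ± 12.1 TPM). The TPM of COX7, COX9, ATP15 and ATP18 rests on 180 to 189 coding bases read with 100-base reads, which limits its accuracy.

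**Figure D4:**
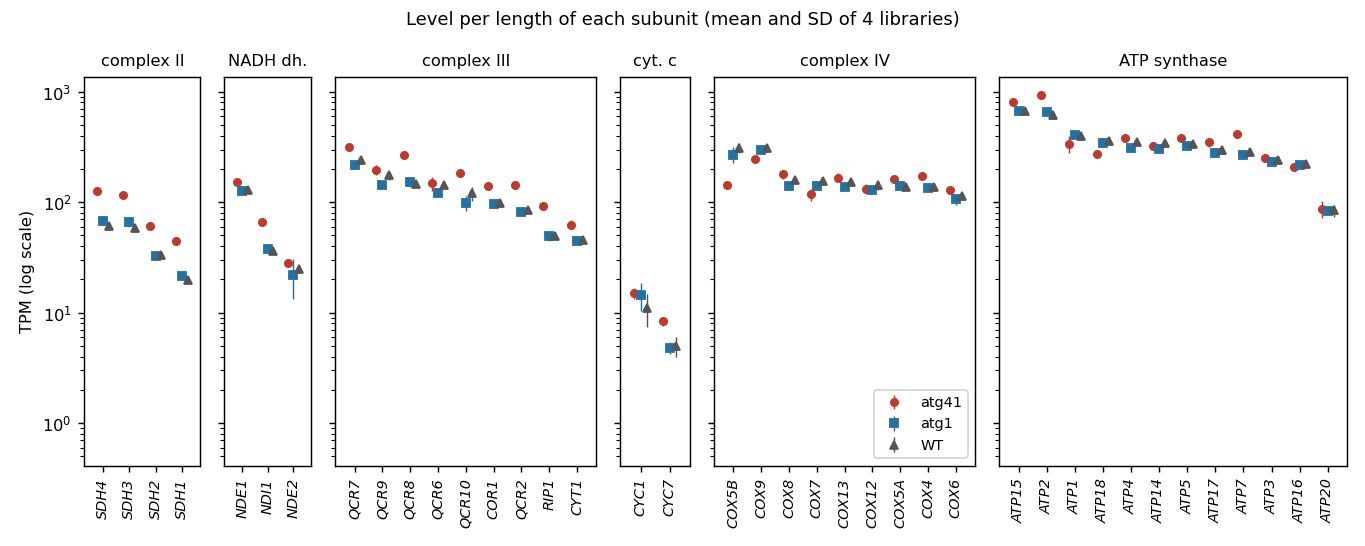
Level per length (TPM, log axis) of each gene by complex, as the mean and SD of 4 libraries in atg41 (circles), atg1 (squares) and WT (triangles). ATP15 and ATP2 are the most abundant and CYC1 and CYC7 the least in each strain; all 4 complex II genes stand apart in atg41, and COX5B stands lower.

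Genes that feed or serve the chain were listed alongside the subunits. Of 11 genes of coenzyme Q synthesis, 7 rose in atg41 and 2 fell. The largest rise was COQ6, a ring hydroxylase (0.77 ± 0.05, adjusted p = 6.81e-09), and the largest fall was COQ11 (-0.39 ± 0.09, adjusted p = 0.00144). Of 8 genes of heme synthesis, 6 rose and 1 fell. HEM15, the ferrochelatase that inserts iron into heme, rose by 0.93 ± 0.07 (adjusted p = 8.49e-08), and HEM2, a zinc enzyme of an early step, fell by 0.19 (SE 0.05, adjusted p = 0.00582). Of 4 other electron donors, DLD1 (D-lactate dehydrogenase) rose by 0.47 ± 0.07 (adjusted p = 3.27e-05) and MCR1 (NADH-cytochrome b5 reductase) fell by 0.63 (SE 0.07, adjusted p = 1.97e-06). Of 5 carriers for ADP, ATP and phosphate, 4 rose, the largest rise being PET9, the main ADP/ATP carrier (0.61 ± 0.09, adjusted p = 5.15e-05). These shares stand beside the backgrounds of 29.9% and 35.9%.

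Among 6 regulators of these genes, HAP4 and HAP5 rose in atg41, and HAP2 and ROX1 fell. These shares, 33.3% each, were near the 29.9% and 35.9% of all genes that rose and fell. HAP4, the activating subunit of the CCAAT-binding complex, had 96.6, 99.6, 82.1 and 87.5 CPM in atg41, 63.6, 55.0, 52.2 and 53.0 CPM in atg1, and 56.1, 59.4, 54.7 and 54.8 CPM in WT. Every atg41 library was above all others, and HAP4 rose by 0.70 ± 0.07 (adjusted p = 1.43e-06). HAP5, a DNA-binding subunit, rose by 0.46 ± 0.07 (adjusted p = 2.96e-05), HAP2 fell by 0.37 (SE 0.08, adjusted p = 0.000595) and HAP3 was not called (0.07 ± 0.07). ROX1, a repressor of hypoxic genes, had 54.2, 70.1, 28.1 and 41.1 CPM in atg41, 136, 125, 127 and 113 CPM in atg1, and 126, 138, 141 and 133 CPM in WT. The atg41 libraries were spread but all below the others, and ROX1 fell by 1.47 (SE 0.20, adjusted p = 5.07e-05). HAP1, a heme-responsive activator that carries a transposon insertion in strains of this descent, was not called (0.04 ± 0.07). In atg1 the adjusted p of the 6 regulators lay between 0.502 and 0.958.

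Coding length moved with the changes of these genes. The Spearman correlation between coding length and the log2 change in atg41 against WT was 0.39 over the 39 genes and 0.11 over 5737 genes, given as a description across genes measured in the same libraries. In atg1 against WT the values were 0.36 and -0.07, and in atg41 against atg1 they were 0.35 and 0.12. When trends with GC content and coding length were removed inside the fit, those of atg41 against WT were 0.09 and -0.03. In that fit 30 of the 39 genes rose in atg41 and 4 fell, against backgrounds of 35.6% and 32.8%, and the median change was 0.48. All 21 genes that rose kept their call. A further 9 were called higher: COX6, COX8, COX13, QCR9, CYC1, ATP3, ATP4, ATP14 and ATP20. Of the 5 that fell, COX5B (-0.90), ATP1 (-0.34), COX9 (-0.26) and ATP18 (-0.15) kept their call and COX7 did not (-0.11, adjusted p = 0.372). Complex IV then had 5 genes that rose and 2 that fell, with a median of 0.35, and the ATP synthase 9 and 2, with a median of 0.31. Complex II, at 1.09, remained highest of the complexes. In atg1 against WT the same fit called 1 gene higher (QCR8, 0.23, adjusted p = 0.0469), against 0.558% and 1.88% of all genes. In atg41 against atg1 it called 29 higher and 4 lower, against 34% and 32.8%. Whether the trend with length is technical was not tested.

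**Figure D5:**
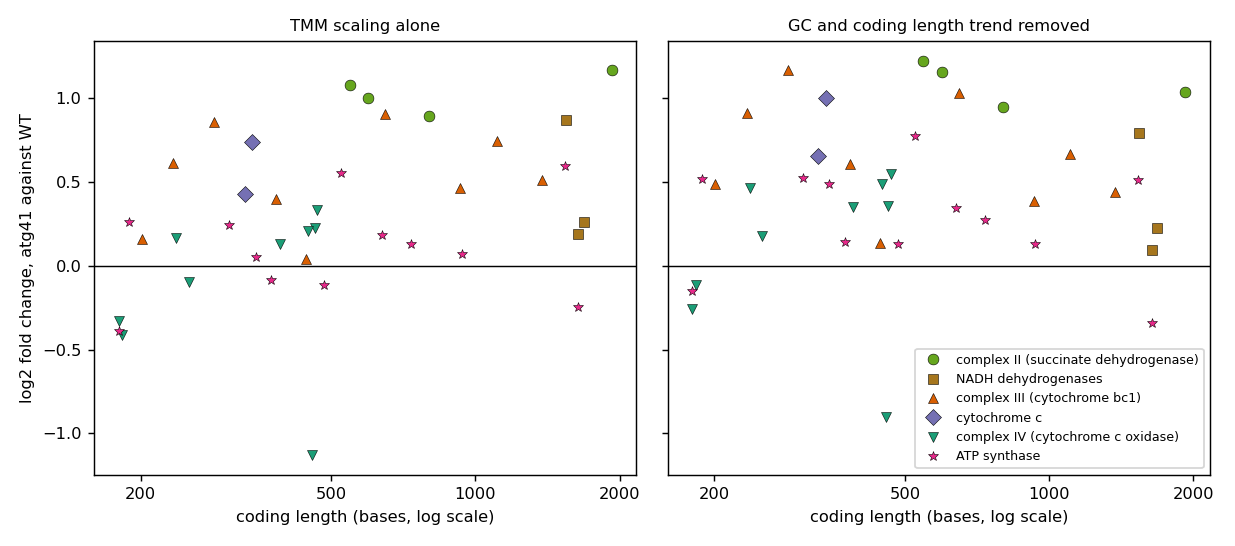
Log2 fold change in atg41 against WT (vertical axis) of the 39 genes by coding length (bases, log axis), with TMM scaling alone (left) and with GC and length trends removed (right). With TMM scaling alone 3 of the shortest genes, COX7, COX9 and ATP18, are lower, while the short genes ATP15 (189 bases), QCR10 (234) and QCR8 (285) are higher. COX5B stays the lowest (-1.13 and -0.90) in both panels.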

How the data were processed

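RNA libraries were made from poly-A RNA with an Illumina TruSeq kit and read as 100-base single ends, per the labels' protocols. The tools listed in the submitters' processing notes are edgeR, RSEM, STAR and BWA. The sources used here do not give their roles or versions, the genome build or the annotation. In the deposited tables the authors gave expected counts per gene, of which 18.4% were not whole and were rounded, and TPM per gene, used as deposited to compare levels between genes. The tables also hold 12 columns of per-sample values whose names match none of the 12 samples described, not used here.

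Of 6660 features, 6195 passed edgeR's filterByExpr (minimum count 10, minimum total 15). Libraries were scaled with TMM and tested with edgeR 4.0.16 (R 4.3.3), quasi-likelihood F test, robust, two-sided, in 1 fit of all 12 libraries with strain as its factor and Benjamini-Hochberg adjustment over 6195 genes. SE is the absolute log2 fold change over the square root of F, and the common biological coefficient of variation (edgeR) was 9.37%. Isoform ratios used a prior of 0.5 counts and exact permutation tests over libraries.

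The members and gene lists were chosen with earlier results of these data known. Values in every library are given for the genes picked by a rule: the most abundant gene per length in WT and the largest called rise and fall in each complex, the isoform pairs, NDI1, and the gene with the smallest p in atg1. In each further list the largest called rise and fall are named. SDH2, SDH3, COX7, COX9, ATP1, ATP4, ATP16 and other members named with values outside this rule were chosen after their values were seen.

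Alternatives were DESeq2 1.42.0, its size factors, equal totals, no filter, only the compared strains, a replicate block, removal of GC and coding length trends (natural splines, 4 df each, 5737 genes with a RefSeq match) and leaving out each library. The scripts were run on simulated counts with the same dispersion for all genes and far fewer changed genes than were called in atg41. The recovery limit of that run was lowered after a DESeq2 result was seen, and none of its values are used here. Coordinates and promoters are RefSeq R64, 1-based. No member overlaps another coding gene there. No source used here says that the library kit marks strand, so antisense reads cannot be told apart, and reads of paralogs can be split between them.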

Additional observations from a re-analysis of the deposited data

Results flagged for a closer look

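Single libraries stood apart within their group in 7 of 117 groups of 4 libraries (39 genes in 3 strains), where chance gives about 1 in 20, or 5.85. Each was the highest or lowest of its group by a gap wide against the group's range. COX4 had 74.5 CPM in atg41 replicate 2, against 69.2 to 70.1 in the other atg41 libraries. QCR8 had 50.6 CPM in atg41 replicate 3, against 56.6 to 57.0. QCR2 had 96.8 CPM in atg1 replicate 2, against 99.3 to 99.6. NDI1 had 62.1 CPM in atg1 replicate 3, against 66.3 to 67.1. SDH3 had 49.3 CPM in atg1 replicate 1, against 35.4 to 37.3, and NDE1 had 261 CPM in that library, against 228 to 233. ATP1 had 666 CPM in WT replicate 2, against 696 to 699.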

How the results depend on the processing

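Of the 21 genes that rose in atg41 against WT, 17 kept their call in all 20 alternatives, and COX5A, ATP5, ATP15 and ATP17 lost it only at equal totals. Of the 5 that fell, COX5B, COX9 and ATP18 kept their call throughout. Calls that ATP1 and COX7 lost, and those gained when 1 library was left out or the trends removed, stand beside their values above. Further calls gained as higher in atg41 against WT were COX6, ATP3 and ATP4 in DESeq2 (adjusted p = 0.0459, 0.0385 and 0.00623), COX6, COX8, COX13 and ATP4 with its size factors (0.0412, 0.0439, 0.0437 and 0.0182), and COX6, COX8, COX13, ATP4 and NDE2 with those strains alone (0.00251, 0.0243, 0.049, 0.012 and 0.00577). At equal totals COX12, ATP14 and ATP16 were called lower (0.0411, 0.00842 and 0.000954). In atg41 against atg1 the calls of COX5A, COX6, COX7, COX13, QCR6, ATP4, ATP5, ATP14, ATP15, ATP16 and ATP20 each differed under at least 1 alternative. At equal totals 8 of the 39 genes fell in atg41 against WT. Medians against WT in atg41 were then 0.90 for complex II, 0.38 for complex III, 0.13 for the NADH dehydrogenases, -0.0018 for complex IV and -0.037 for the ATP synthase. In atg1 against WT they were -0.034 (complex III), -0.018 (NADH dehydrogenases, set by NDE1), -0.13 (complex IV) and -0.060 (ATP synthase), with CYC7 at -0.034 and ATP18 at -0.071. In atg41 against atg1 they were 0.22 (NADH dehydrogenases) and 0.048 (ATP synthase). With GC and coding length trends removed, medians in atg41 against WT were 1.09 (complex II), 0.61 (complex III), 0.83 (cytochromes c), 0.35 (complex IV) and 0.31 (ATP synthase). In atg41 against atg1 they were 0.66 (complex III), 0.55 (cytochromes c) and 0.26 for both complex IV and the ATP synthase, and CYC1 was 0.19. In atg1 against WT they were -0.0078 (complex III) and 0.065 (ATP synthase). Same-numbered libraries did not pair: their deviations correlated at -0.166 to 0.164, over 0.1 in 2 of 12 pairs, and 4 of 24 were closest to their own number. With the replicate number as a block 21 of the 39 genes rose and 5 fell in atg41. With that block and the trends removed, medians in atg41 against WT were 1.10 (complex II), 0.61 (complex III), 0.84 (cytochromes c), 0.35 (complex IV) and 0.31 (ATP synthase). In atg41 against atg1 they were 0.66 (complex III), 0.56 (cytochromes c), 0.27 (complex IV) and 0.26 (ATP synthase), with CYC1 at 0.21, and in atg1 against WT -0.0081 (complex III) and 0.062 (ATP synthase). Over all genes, 231 calls in atg1 against WT became 378 at equal totals, 379 in DESeq2, 69 with those strains alone, 140 with the trends removed and 116 with the block as well. Among the 39 genes, 2 were then called in DESeq2 and 1 (QCR8) with the trends removed. Leaving out single libraries gave 53 to 457 calls over all genes in atg1 against WT and 0 to 1 among the 39, the 1 being SDH4. Medians ranged from 1.00 to 1.05 for complex II, from 0.067 to 0.16 for the ATP synthase and from 0.079 to 0.18 for complex IV in atg41 against WT. In atg41 against atg1 they ranged from 0.24 to 0.42 for the NADH dehydrogenases, from 0.035 (without atg1 replicate 3) to 0.14 for complex IV and from 0.20 (without atg1 replicate 4) to 0.44 for the cytochromes c. In atg1 against WT they ranged from 0.046 to 0.13 for the NADH dehydrogenases, from -6.5e-05 to 0.052 for complex III, from -0.069 to 0.015 for complex IV, from 0.14 to 0.38 for the cytochromes c, from 0.15 to 0.27 for complex II and from 0.010 to 0.027 for the ATP synthase. No called change of the 39 genes turned sign when 1 library was left out, and uncalled ones did in 2 genes in atg41 against WT (QCR6 and ATP20), 10 in atg1 against WT and 3 in atg41 against atg1. Among the genes given by library, those in atg1 against WT were RIP1 (-6.5e-05 to 0.17), NDE2 (-0.23 to 0.13), CYC7 (-0.080 to 0.19) and ATP18 (-0.033 to 0.032), and in atg41 against atg1 CYC1 (-0.22 to 0.090). The NDE2 to NDE1 ratio ranged from -0.41 to 0.11 in atg1 against WT and from -0.17 to 0.35 in atg41 against atg1. The cause of these shifts was not tested. CYC1 and CYC7, at 1.15 to 5.03 CPM, are the genes that depth limits most.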

Other observations

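Some genes of these lists are known in yeast as hypoxic genes held down by Rox1 in aerated cells, and they did not move together in atg41, where ROX1 itself fell. They were picked after their values were seen. COX5B fell by 1.13 in atg41 against WT on the log2 scale, CYC7 rose by 0.74, and HEM13 (coproporphyrinogen oxidase) rose by 0.45 ± 0.08 (adjusted p = 0.000113, edgeR). AAC3, the ADP/ATP carrier of anaerobic cells, was not called (-0.22 ± 0.12, adjusted p = 0.114). The cause was not tested.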
